A study of Mus musculus with 3 samples.

Results

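The proteasome is the cell's main machine for degrading proteins tagged with ubiquitin, and its subunits are encoded by a family of genes whose mouse symbols begin with Psma, Psmb, Psmc, Psmd, Psme, Psmf or Psmg. The 50 genes with such a symbol followed by a number, without pseudogenes and antisense transcripts, were followed among the 31053 genes counted in single testicular cells of 3 mouse genotypes. By role they were 7 alpha and 7 beta subunits of the 20S core, the testis alpha subunit Psma8, 3 immune and 1 thymic beta subunit, 6 ATPases and 11 other subunits of the 19S cap, 3 chaperones of cap assembly and 4 of core assembly, 4 members of the 11S activator group, the activator Psme4 and the inhibitor Psmf1. The last match, Psmc3ip, shares only the name, since it encodes a meiotic recombination factor.

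Each genotype was 1 library of dissociated testis cells from adult C57BL/6 males, read by 10x Genomics 3′ sequencing with unique molecular identifiers (UMIs). The wild type (WT) library was compared with GRTH-KO (KO), which lacks GRTH/DDX25, a testis-specific RNA helicase of the DEAD-box family, and with GRTH-KI (KI), in which mice carry the human gene with an arginine-to-histidine change and lack the phosphorylated form of the protein. The labels give an age of 8 weeks and 1 mouse per genotype, whereas the study's methods speak of testes pooled within a genotype, and both changes are present in the whole animal rather than in 1 cell type. With 1 library per genotype no difference between genotypes has a replicate check, so values are given with 95% intervals that cover counting error only, and no test was made.

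Inside the cell, alpha and beta rings of 7 subunits each form the 20S barrel, with the cutting sites on the beta subunits Psmb5, Psmb6 and Psmb7. The 19S cap carries a ring of ATPases (the Psmc genes) that unfolds substrates and a lid and base of further subunits (the Psmd genes) that bind and strip ubiquitin. Male germ cells have a variant, the spermatoproteasome, in which Psma8 takes the place of the alpha subunit Psma7 and which works with the activator Psme4, also called PA200, known for its part in the removal of acetylated histones.

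The libraries held 82973909, 91388296 and 73150373 UMIs in WT, KO and KI, of which 68.0%, 56.4% and 60.1% fell in barcodes called as cells. In all, 11517 cells were kept (5872 in WT, 4073 in KO and 1572 in KI), with a median of 5107 UMIs per cell in WT, 3963 in KO and 11741.5 in KI. Cells were classed without the 50 genes and named from marker genes as spermatogonia-like (SG-like), early spermatocyte-like in 3 groups ordered by their levels of Stra8 and Prdm9 (early SP-like 1 to 3), pachytene and late spermatocyte-like (together SP-like), round spermatid-like (RS-like), elongating spermatid-like (ES-like), and Sertoli-like, stromal and myoid-like, macrophage-like and Leydig-like cells. Cluster 7, whose markers pointed to late spermatocytes but with more pachytene than late ones among its leading genes, and clusters 9 and 14 stayed unnamed. SG-like cells numbered 36, 38 and 22 in WT, KO and KI, early SP-like cells 78, 99 and 56, SP-like cells 593, 1019 and 301, and RS-like cells 1502, 1476 and 534. The ES-like cells were divided unevenly: ES-like A held 507, 295 and 118 cells, ES-like B 819, 161 and 58, and ES-like C 1087, 7 and 2, so that the last is described for WT only. Without integration the clusters named ES held 1233 and 1059 WT cells, 1 and 0 KO cells and 1 and 4 KI cells. Cst13, Cypt1 and Hemgn, leading genes of ES-like A, then led a cluster named round spermatid, with 300 WT, 471 KO and 160 KI cells. The study reports no distinct elongated spermatids in KO and KI. Of the kept cells, 107 had a barcode that was also kept in another library. Ddx25, the gene targeted in KO, was counted with 1665 UMIs in WT RS-like cells, with 0 in KO and with 1260 in KI, and SP-like cells held it at 214, 0.320 and 89.1 CPM. Levels are a gene's UMIs per 1000000 UMIs of the class in that library (CPM), and 3 values in a row are in the order WT, KO and KI. Because 3′ counting gives 1 UMI per captured molecule whatever the transcript's length, levels of different genes are set side by side without a length correction. Barcodes too small to be cells gave the profile of free RNA, and its level is stated where it matters.

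Psma7 and Psma8, the alternative subunits for the same place in the alpha ring, were at their highest in successive stages, with a stretch between them in which both were low. In SG-like cells Psma7 was at 351 CPM (287 to 425) in WT, 334 CPM (278 to 398) in KO and 320.4 CPM (274 to 372) in KI. In early SP-like 1 cells it was at 45.4, 62.4 and 20.5 CPM, and in pachytene SP-like cells at 27.7, 30.2 and 24.5 CPM. Psma8 was at 56.3, 64.6 and 97.4 CPM in SG-like cells and at 34.0, 29.8 and 51.3 CPM in early SP-like 1 cells, the latter from 3, 11 and 15 UMIs. In all 3 libraries early SP-like 1 cells thus had less Psma7 than SG-like cells, from 4, 23 and 6 UMIs. The values of Psma8 were lower there too, but its SG-like levels rest on 17, 24 and 52 UMIs. Of these, 8, 11 and 35 lay in 1 cell of each library, so no fall of Psma8 is read from them. Psma7 was lower still in RS-like cells. The level of Psma8 then stood at 111, 172 and 127 CPM in early SP-like 2 cells and at 441 CPM (389 to 498) in WT, 321 CPM (273 to 374) in KO and 367 CPM (317 to 424) in KI in early SP-like 3 cells. Pachytene SP-like cells had 380.1, 372 and 427 CPM, late SP-like A cells 165, 204 and 223 CPM and cluster 7 77.0, 64.4 and 66.1 CPM. Among the named classes early SP-like 3 and pachytene SP-like cells were the highest in all 3 libraries, and the unnamed cluster 9 held 242, 271 and 384 CPM. After pachytene the level was lower at each step given here, down to 37.4, 31.6 and 23.6 CPM in RS-like and 9.41, 12.9 and 7.10 CPM in ES-like A cells. These spermatid levels lie below those of free RNA, in which Psma8 was at 72.4, 75.7 and 90.6 CPM, as do those of early SP-like 1 cells in all 3 libraries, of SG-like cells in WT and KO and of cluster 7 in KO and KI, and so does Psma7 at 8.87, 10.4 and 8.23 CPM in RS-like cells against 18.6, 24.6 and 18.9 CPM in free RNA.

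**Figure D1:**
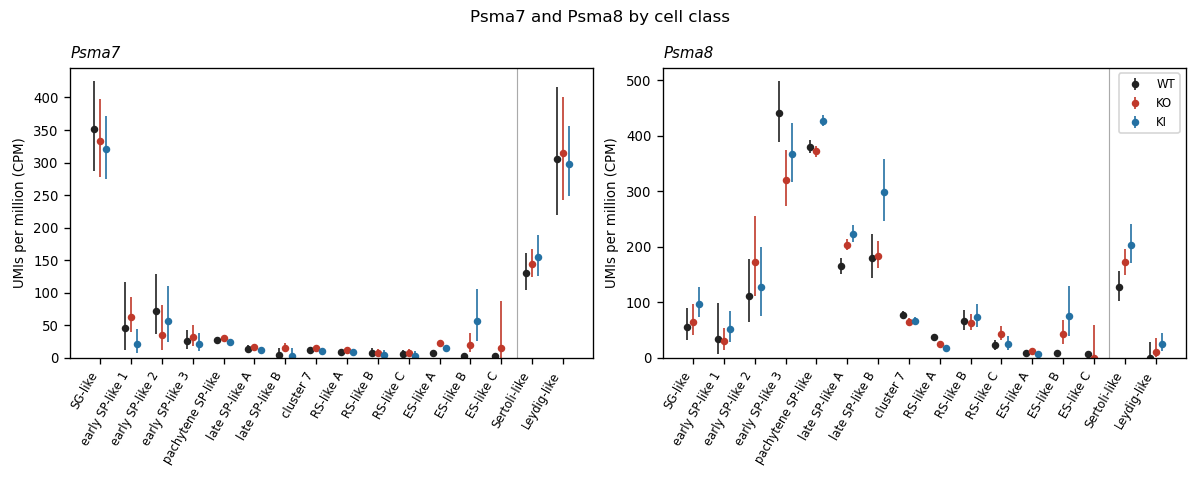
Levels in CPM of Psma7 (left) and Psma8 (right) by cell class, 1 point per library (WT, KO and KI) with bars for 95% counting intervals; a class with fewer than 50000 UMIs in a library is not plotted. Psma7 is highest in SG-like and Leydig-like cells, at 351, 334 and 320.4 CPM in the former, both genes are low in early SP-like 1 cells, and of the classes plotted Psma8 is highest in early SP-like 3 and pachytene SP-like cells.

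A share within a pair does not depend on how libraries are scaled. Psma8 made up 13.8% (8.26 to 21.2) of the UMIs of the pair in WT SG-like cells, 16.2% (10.7 to 23.2) in KO and 23.3% (17.9 to 29.4) in KI. The higher KI share came largely from 1 cell, which held 35 of the 52 Psma8 UMIs of that class, and it was 2.90% once cells with at least 5% mitochondrial UMIs were left out. The KO share was 9.77% with likely doublets removed. The share was 42.9%, 32.4% and 71.4% in early SP-like 1, 60.7%, 83.3% and 69.2% in early SP-like 2 and 94.5%, 91.1% and 94.5% in early SP-like 3 cells, and 93.2%, 92.5% and 94.6% in pachytene SP-like cells. From early SP-like 3 to late SP-like A, where it was 92.1%, 92.4% and 95.1%, more than 9 in 10 molecules of the pair were Psma8 whatever the genotype. In RS-like cells the share was 80.8%, 75.2% and 74.1%, beside 79.6%, 75.4% and 82.7% of free RNA, and in ES-like A cells 53.8%, 36.0% and 31.1%.

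Within single cells the exchange was read after thinning every cell to 2000 UMIs and leaving out shallower cells. Of pachytene SP-like cells, 56.4%, 48.2% and 51.7% then had a Psma8 UMI, 6.19%, 6.11% and 3.48% a Psma7 UMI and 4.23%, 2.71% and 1.99% a UMI of each. In SG-like cells Psma7 was found in 47.1%, 45.9% and 55.0% and Psma8 in 8.82%, 10.8% and 0% of cells, where 0 of the KI cells allows up to 15.0% of cells with a UMI at this thinned depth only. Before thinning, Psma8 was found in 99.7%, 99.8% and 100.0% of pachytene SP-like and 29.4%, 27.0% and 40.0% of SG-like cells. Leydig-like cells, the endocrine cells between the tubules, have no known use of Psma8 and served as the background: 0 cells of each library had a UMI after thinning, which allows up to 20%, 14.3% and 15.0%, and 0%, 9.52% and 20% had 1 before it. Median depths were 6894, 10413 and 18945 UMIs in Leydig-like, 30077, 34058.5 and 78907 in pachytene SP-like and 7268, 8555.5 and 19916.5 in SG-like cells. Psma7, in contrast, was at 306, 314 and 299 CPM in Leydig-like cells, near its SG-like level.

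Sertoli-like cells, the somatic cells that nurse the germ cells, held both genes, with 130.0, 144 and 155 CPM of Psma7 and 127, 172 and 204 CPM of Psma8. In these barcodes the 9 pachytene markers summed to 4848, 5831 and 5098 CPM, beside sums of 7801, 8273 and 8267 CPM for SP-like cells and of 3022, 4537 and 3889.8 CPM for free RNA, while the 10 Sertoli markers summed to 5266, 3735 and 4417 CPM. Early SP-like 2 cells in turn carried Sertoli markers at 2816, 621 and 1725 CPM, against 42.5, 60.3 and 59.3 CPM in pachytene SP-like cells. The 14 ES markers summed to 50103, 13069 and 29260.5 CPM in Sertoli-like and 3029, 624 and 301 CPM in SP-like cells. The part of these other cell types in the levels of the members was not tested. Against SP-like cells, Sertoli-like cells had 3 of the 40 members past the filter at least 2-fold higher in each library (12.6% of all genes), Psmf1, Psma7 and Psma6, and 0 lower (7.20% of all genes).

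The start of Psma7 lies on chromosome 2 and that of Psma6, the alpha subunit highest in spermatids, on chromosome 12; the 250 bases before each start are shown because the genes of 1 ring behaved so unlike each other, beside those of the activator Psme4 and of Psmb5, a catalytic subunit. The sequences are from RefSeq for the build GRCm38.p6, 5′ to 3′ on the strand of the gene, with capitals for the 3 motifs searched on both strands.
Psma7, minus strand, chr2:180042465-180042714: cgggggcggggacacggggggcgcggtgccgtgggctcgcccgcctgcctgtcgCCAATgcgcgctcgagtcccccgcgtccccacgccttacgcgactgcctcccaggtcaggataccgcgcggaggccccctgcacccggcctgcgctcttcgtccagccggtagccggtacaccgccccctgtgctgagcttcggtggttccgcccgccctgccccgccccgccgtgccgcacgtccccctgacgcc
Psma6, plus strand, chr12:55383972-55384221: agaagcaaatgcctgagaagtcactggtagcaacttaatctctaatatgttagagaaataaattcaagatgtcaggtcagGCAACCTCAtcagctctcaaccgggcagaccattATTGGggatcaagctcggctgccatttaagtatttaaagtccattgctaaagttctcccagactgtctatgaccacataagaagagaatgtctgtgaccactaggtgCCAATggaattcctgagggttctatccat
Psme4, plus strand, chr11:30771525-30771774: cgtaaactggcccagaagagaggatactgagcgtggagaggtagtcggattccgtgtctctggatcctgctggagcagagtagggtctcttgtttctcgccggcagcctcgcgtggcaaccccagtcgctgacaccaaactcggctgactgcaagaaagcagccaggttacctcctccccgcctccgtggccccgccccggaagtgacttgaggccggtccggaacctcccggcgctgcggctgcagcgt
Psmb5, minus strand, chr14:54617996-54618245: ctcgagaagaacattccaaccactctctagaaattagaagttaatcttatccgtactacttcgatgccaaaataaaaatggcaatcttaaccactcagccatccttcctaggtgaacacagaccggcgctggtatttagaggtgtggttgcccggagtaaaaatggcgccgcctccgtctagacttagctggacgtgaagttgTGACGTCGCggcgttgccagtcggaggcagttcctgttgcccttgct
The motifs were the core of the antioxidant response element, TGANNNNGC, which the proteasome gene activator NFE2L1 is known to use, the NRF1 motif (GCGCA and GCGC with 1 base between them) and the CCAAT box. Psma7 held 1 CCAAT box, Psma6 an antioxidant core and a CCAAT box on the opposite strand and a CCAAT box on its own strand, Psmb5 1 antioxidant core, and Psme4 none of the 3 in the bases shown. In base composition Psma7 and Psma6 were the extremes of the 42 members matched in the RefSeq table, with 77.2% and 42.8% G and C, against a median of 57.4% over these members and 52% over all 27025 genes. In windows that reach 50 bases past the start, the antioxidant core was found in 23 of the 42 members (54.8%) against 41.4% of all genes, and in 8 of 11 core subunit genes (72.7%). Psma7 and Psme4 were among the 23, with 1 core each in these longer windows, and Psma8 was not among the 42. The NRF1 motif was found in 7 members (16.7%) against 4.78% of all genes, and the CCAAT box in 15 (35.7%) against 37.9%. The antioxidant core was found in 5 of 14 cap subunit genes (35.7%).

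Summed over Psma1 to Psma7 and Psmb1 to Psmb7, the core subunits took 3677, 4423 and 4206 CPM in SG-like cells, 2043, 2203 and 2174 CPM in SP-like, 1961, 2023 and 1947 CPM in RS-like and 1488, 1947 and 1775 CPM in ES-like A cells. The total covers unlike courses inside the list, with Psma6 and Psmb6 apart from most of the others. Psma6 was at 258, 320.3 and 217 CPM in SG-like and 157, 161 and 147 CPM in SP-like cells, at 845 CPM (829 to 862) in WT, 737 CPM (719.7 to 754) in KO and 725 CPM (707 to 743) in KI in RS-like cells and at 1186, 1329 and 1227 CPM in ES-like A cells. In ES-like B cells it was at 1579, 821 and 1141 CPM, and in ES-like C cells of WT at 2194 CPM. The order SP-like, RS-like, ES-like A was the same in all 3 libraries, while ES-like B cells stood above ES-like A cells in WT and below them in KO and KI. The free RNA held Psma6 at 1021, 853 and 994 CPM, above the RS-like and below the ES-like A levels.

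**Figure D2:**
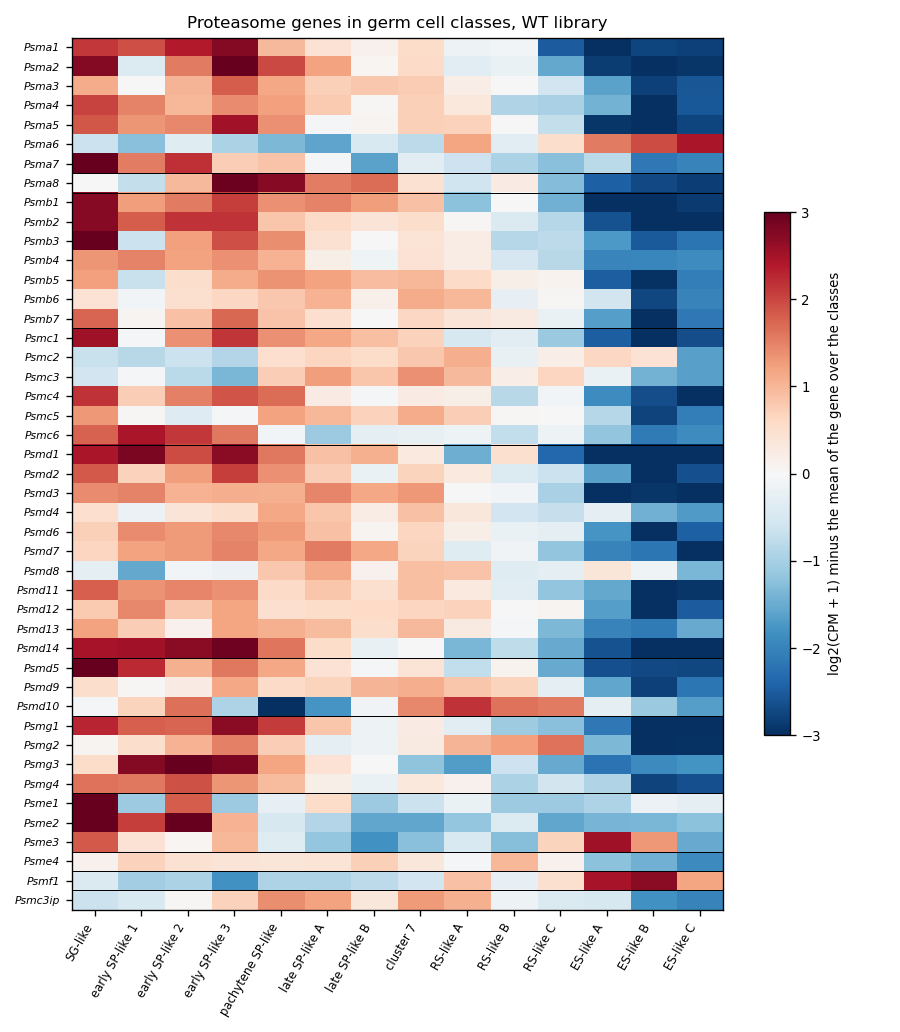
Proteasome genes (rows, ordered by role) in the germ cell classes (columns) of the WT library; the colour is log2(CPM + 1) minus the gene's mean over the classes, red above and blue below it. Most core and cap genes are red in SG-like and early SP-like cells and blue in ES-like cells, while Psma6, Psmf1 and Psme3 are red in ES-like A and B cells.

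Counted as a share of all core subunit UMIs, Psma6 made up 7.03%, 7.24% and 5.17% in SG-like and 7.68%, 7.33% and 6.78% in SP-like cells, near the share of 1 gene among 14. It made up 12.9%, 12.9% and 10.5% in cluster 7, 43.1%, 36.4% and 37.2% in RS-like and 79.7%, 68.2% and 69.1% in ES-like A cells. In ES-like B cells the share was 93.1%, 48.9% and 64.8%, a class with 161 KO and 58 KI cells of a median of 1634 and 1256 UMIs against 7912 in WT, and in ES-like C cells of WT it was 92.7%. The other 13 core genes together were at 3418, 4102 and 3989 CPM in SG-like, 1519, 2022 and 1635 CPM in early SP-like 1, 1886, 2041 and 2027 CPM in SP-like, 1116, 1286 and 1222 CPM in RS-like and 302, 618 and 548 CPM in ES-like A cells. From SP-like to ES-like A cells, 13, 11 and 11 of the 14 core genes were at least 2-fold lower, with a median of 7.33, 6.22 and 6.96-fold lower, and Psma6 was the 1 gene not lower in each library. Of the 13 core genes past the filter of a mean of 20 CPM over both classes, 12, 11 and 11 were lower, and of all genes past it 55.7%, 49.2% and 49.1%, with a median of 2.62, 1.94 and 1.93-fold.

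**Figure D3:**
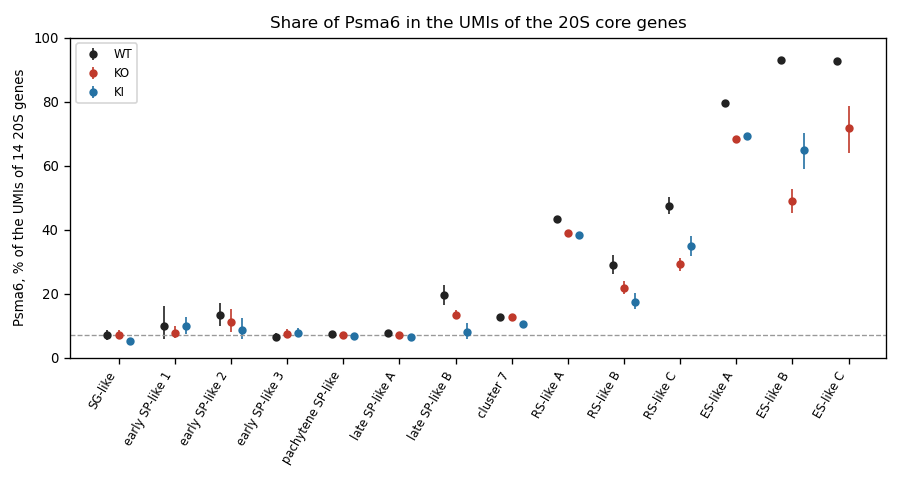
Share of Psma6 in the UMIs of the 14 core subunit genes, in percent, by germ cell class, 1 point per library with 95% counting intervals; the dashed line marks an equal share of the 14 genes. The share is 7.68%, 7.33% and 6.78% in SP-like and 79.7%, 68.2% and 69.1% in ES-like A cells of WT, KO and KI.

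Most of the other core subunits were highest in SG-like or early SP-like cells and were lower in later classes by steps of unequal size. Early SP-like 3, the highest group of several of them in WT, was named with SG-like and early SP-like as the only choices. It had a mean of 5.49 CPM of Prdm9 per cell against 329 CPM in early SP-like 1, and 3051 against 1650 CPM of Sycp3. Psma3, an alpha subunit, was at 268, 334 and 292 CPM in SG-like, 434, 413 and 397 CPM in early SP-like 3, 255, 269 and 281 CPM in SP-like and 134, 94.8 and 86.6 CPM in RS-like cells, the most abundant alpha subunit of SP-like cells beside Psma8. Psma2 was at 248, 213 and 181 CPM in early SP-like, 108, 99.1 and 110.1 CPM in SP-like and 22.8, 31.1 and 31.3 CPM in RS-like cells, and Psma1 was at 146, 136 and 120.1 CPM in early SP-like, 42.0, 44.5 and 42.1 CPM in SP-like and 18.8, 18.6 and 17.0 CPM in RS-like cells. In the beta ring Psmb1 was the leading core transcript of SG-like cells, at 441, 533 and 511 CPM, with 175, 193 and 189 CPM in SP-like and 29.8, 44.8 and 30.2 CPM in RS-like cells. Psmb2 was at 364, 412 and 401 CPM in SG-like, 243, 247 and 226 CPM in early SP-like and 92.8, 98.3 and 102 CPM in SP-like cells. In ES-like A cells Psma1, Psma2, Psma5, Psmb1 and Psmb2 were each under 10 CPM in every library, whereas Psma6 and Psmb6 were each above 100 CPM.

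Among the catalytic subunits, Psmb6, which carries the caspase-like site, kept its level into RS-like cells. It was at 275, 398 and 277 CPM in SG-like, 368, 420.4 and 393 CPM in SP-like, 366, 483 and 470.0 CPM in RS-like and 137, 369 and 336 CPM in ES-like A cells, with 351, 507 and 434 CPM in free RNA. Psmb5, with the chymotrypsin-like site, was at 215, 283 and 305 CPM in SG-like, 227, 251 and 234 CPM in SP-like, 129, 133 and 115 CPM in RS-like and 15.7, 35.1 and 28.6 CPM in ES-like A cells. Psmb7, with the trypsin-like site, was at 252, 275 and 242 CPM in SG-like, 126, 140.3 and 140.1 CPM in SP-like, 94.0, 117 and 118 CPM in RS-like and 23.2, 39.6 and 39.3 CPM in ES-like A cells. In ES-like A cells Psmb6 was thus far above the other catalytic subunits in each library. Their immune counterparts, which replace them in cells exposed to interferon, were low in or absent from germ cells apart from Psmb10 in SG-like cells. Psmb8 had 0 UMIs in SG-like, early SP-like, SP-like, RS-like and ES-like A cells of each library, and was at 116, 273 and 199 CPM in macrophage-like cells. Psmb9 was at 0, 164 and 53.8 CPM in the macrophage-like cells, the WT value resting on 13 cells, and Psmb10 at 77.4, 27.3 and 64.5 CPM there and at 13.2, 59.2 and 41.2 CPM in SG-like cells. The thymic subunit Psmb11 reached at most 3.91 CPM in the SG-like to ES-like A classes.

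The cap subunits had unlike courses. Psmc3, an ATPase of the base, stood at 185, 239.9 and 146 CPM in early SP-like 3, 803 CPM (786 to 821) in WT, 859 CPM (845 to 873) in KO and 808 CPM (794 to 821) in KI in pachytene SP-like cells, 1256, 1270.1 and 1253 CPM in cluster 7, 902, 898 and 890.1 CPM in RS-like and 420.4, 475 and 426 CPM in ES-like A cells. Its level in free RNA was 1039.6, 1159.8 and 1019 CPM. Psmc2, another ATPase, was at 104, 149.7 and 122 CPM in early SP-like, 266, 311 and 311 CPM in SP-like, 355, 426 and 461 CPM in RS-like and 285, 383 and 387 CPM in ES-like A cells. The ubiquitin receptor Psmd4 was at 295, 317 and 315 CPM in SP-like, 163, 193 and 191 CPM in RS-like and 116, 133 and 123 CPM in ES-like A cells. The lid subunit Psmd8 was at 368, 412 and 393 CPM in SP-like, 329, 414 and 402 CPM in RS-like and 259.9, 413 and 397 CPM in ES-like A cells. These 4 genes, singled out after their values were seen and not the 4 with the least change at every step, summed to 693, 814 and 602 CPM in early SP-like, 1818, 1968 and 1884 CPM in SP-like, 1749, 1931 and 1944 CPM in RS-like and 1081, 1404 and 1333 CPM in ES-like A cells, against 1915, 2323 and 2112 CPM in free RNA. The other 13 cap genes summed to 2153, 2285 and 2441 CPM in SG-like, 1449.8, 1624 and 1641 CPM in SP-like, 759.7, 896 and 925 CPM in RS-like and 209, 369 and 351 CPM in ES-like A cells. From SP-like to ES-like A cells 14, 14 and 15 of the 17 cap genes were at least 2-fold lower, with medians of 7.13, 3.77 and 4.23-fold, beside the same 55.7%, 49.2% and 49.1% of all genes.

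Of these 13, the lid deubiquitinase Psmd14 was at 185, 206 and 192 CPM in early SP-like, 66.5, 83.5 and 86.0 CPM in SP-like and 9.40, 10.1 and 7.35 CPM in RS-like cells. Psmd1, the largest scaffold of the base, was at 235, 252 and 306 CPM in early SP-like, 103, 101 and 125 CPM in SP-like and 15.3, 22.8 and 26.8 CPM in RS-like cells, and may share reads with Gm21972, whose exons overlap it on the same strand. Psmd2, its partner in the base, was at 355, 262 and 304 CPM in early SP-like, 226, 229.9 and 251 CPM in SP-like and 109.7, 130.5 and 153 CPM in RS-like cells. The ATPase Psmc6 was at 147, 198 and 179 CPM in early SP-like, 33.6, 35.7 and 39.6 CPM in SP-like and 36.0, 30.8 and 33.9 CPM in RS-like cells, with its step between early SP-like and SP-like cells. Psmc5, an ATPase of the same ring, dipped in early SP-like cells, at 72.2, 94.9 and 79.0 CPM, between 192, 213 and 223 CPM in SG-like and 171, 210.4 and 197 CPM in SP-like cells. The 6 ATPases, which are needed in equal numbers in the ring, thus differed from each other in SP-like cells from 33.6, 35.7 and 39.6 CPM for Psmc6 to 888, 929 and 865 CPM for Psmc3.

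Steps between stages were then counted over members with a mean of at least 20 CPM in the classes compared, a gene being counted when it differed at least 2-fold in the same direction in each of the 3 libraries. From SG-like to early SP-like cells 45 members passed the filter. Of them 1 was higher (6.21% of all genes were), Psma8, with log2 ratios of 2.56, 1.58 and 1.26. Another 7 were lower (9.69% of all genes): Psma7, the core subunit Psmb3, the ATPase Psmc5, the cap chaperone Psmd5, the immune subunit Psmb10, and the 11S activators Psme1 and Psme2. Psma7 had log2 ratios of -3.25, -2.93 and -3.55, and Psmd5 of -1.79, -2.53 and -2.20. The count of higher members at this step was 3 with TMM scaling (12.2% of all genes), 2 without integration (9.49%) and 2 at resolution 0.6 (9.25%). From early SP-like to SP-like cells 3 of 42 were higher (19.7% of all genes), the ATPases Psmc3, Psmc2 and Psmc5, and 7 lower (31.9%), namely the cap subunits Psmd1, Psmd14 and Psmc6, the core subunits Psmb2 and Psma1, the core chaperone Psmg3 and the activator Psme3. Psmc3 had log2 ratios of 1.94, 1.65 and 2.22 at this step. With library scaling by edgeR's TMM factors in place of CPM the counts at this step were 8 higher (34.3% of all genes) and 1 lower (14.7%), and Psmd1, at -1.18, -1.31 and -1.28 with CPM, had -0.26, -0.41 and -0.26. The 3 higher became 1 at resolution 0.6 (16.9% of all genes) and 1 at a mitochondrial limit of 5%.

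From SP-like to RS-like cells, across the meiotic divisions, 3 of 39 members were higher (25.2% of all genes) and 10 lower (25.0%). The 3 were Psma6, with log2 ratios of 2.42, 2.18 and 2.29, the inhibitor Psmf1 and the cap chaperone Psmd10. Psmd10, also known as gankyrin, is on the X chromosome, which is silenced in pachytene spermatocytes as a matter of textbook knowledge. It was at 13.2, 18.8 and 31.9 CPM in SG-like, 1.67, 1.44 and 0.475 CPM in SP-like and 61.5, 29.5 and 30.4 CPM in RS-like cells. The lower ones were Psma1, Psma2, Psma8, Psmb1, Psmc1, Psmd1, Psmd6, Psmd7, Psmd14 and Psmg1. From RS-like to ES-like A cells 2 of 32 were higher (12.9% of all genes), Psmf1 and Psme3, and 23 were lower (32.1%). At this last step the lower members made up a larger share than lower genes did at large, but the step was not recomputed under other settings. Prm1, Prm2, Tnp1 and Tnp2 took 0.749%, 0.231% and 0.129% of UMIs in RS-like and 19.1%, 7.24% and 7.24% in ES-like A cells. Their part in the CPM of other genes was not tested. At the other steps the members' shares were near or under those of all genes, apart from the 7 lower of 45 at the first step, which became 4 without integration (11.4% of all genes) and 5 with TMM scaling (6.34%). The 10 lower from SP-like to RS-like cells became 16 of 39 without integration (31.1%). Taking each member's highest germ cell cluster or early group and not the pooled classes, 31 of the 45 that reached 20 CPM in WT had it in the same class group in all 3 libraries. In WT 14 were highest in SG-like and 16 in early SP-like cells, and 6 in pachytene or late SP-like cells. The remaining ones were 2 in cluster 7 (Psmc3 and Psmb6), 4 in RS-like (Psmc2, Psmd10, Psme4 and Psmg2) and 3 in ES-like cells (Psma6, Psmf1 and Psme3). Shares of all genes by highest class were not computed, so these counts cannot be read as a trait of the members. The classes also differ in counting error, with 301887 UMIs in SG-like and 10020458 in pachytene SP-like cells of WT.

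Psme4, the activator of the spermatoproteasome, had a flatter course than its partner Psma8. It was at 225, 199 and 169 CPM in SG-like cells, 265 CPM (255 to 275) in WT, 254 CPM (246 to 262) in KO and 266 CPM (259 to 274) in KI in pachytene SP-like cells and 214, 242 and 283 CPM in RS-like cells. Of the RS-like clusters, RS-like B had 408, 339.9 and 389.9 CPM, the highest level of any class with at least 100000 UMIs in each library, and RS-like A 196, 223 and 267 CPM. RS-like B was a shallow cluster, with a median of 2517.5, 2699.5 and 5872 UMIs per cell and late spermatocyte markers next in rank. In it 5 of the 12 round spermatid markers were above other cells, against 11 in RS-like A and 12 in RS-like C. Its leading gene, Fgf14, led a cluster named round spermatid at resolution 0.6 but late spermatocyte without integration. Without integration the WT level of Psme4 in RS-like cells was 169 CPM. In ES-like A cells Psme4 was at 86.9, 111 and 121 CPM and in WT ES-like C cells at 53.7 CPM, both below free RNA at 161, 188 and 223 CPM. Outside the germ line it was at 179, 168 and 141 CPM in Sertoli-like and 168, 164 and 166 CPM in Leydig-like cells, levels near or below that of free RNA.

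The inhibitor Psmf1, also called PI31, was low in meiosis and high in spermatids. It was at 73.3, 67.6 and 55.7 CPM in pachytene SP-like, 260.1, 270.2 and 220.4 CPM in RS-like A and 782 CPM (763 to 801) in WT, 632 CPM (612 to 653) in KO and 573 CPM (549.6 to 597) in KI in ES-like A cells, the latter well above free RNA at 299, 237 and 269 CPM. In ES-like B cells it was at 916, 369 and 459 CPM and in WT ES-like C cells at 322 CPM. Psme3, the nuclear 11S activator, followed a U-shaped course, at 92.7, 64.6 and 74.9 CPM in SG-like, 19.4, 19.8 and 19.5 CPM in pachytene SP-like and 149.9, 185 and 188 CPM in ES-like A cells. Psme1 and Psme2 form the interferon-induced 11S ring. Psme1 was at 103, 127 and 89.9 CPM in SG-like and 0.798, 1.05 and 1.31 CPM in pachytene SP-like cells, against 260.2, 266 and 231 CPM in Leydig-like cells. Psme2 was at 113, 121 and 129 CPM in SG-like, 0.943, 1.52 and 1.09 CPM in SP-like and 0.121, 18.6 and 15.0 CPM in ES-like A cells, and its value is uncertain because Psme2b is nearly identical to it.

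**Figure D4:**
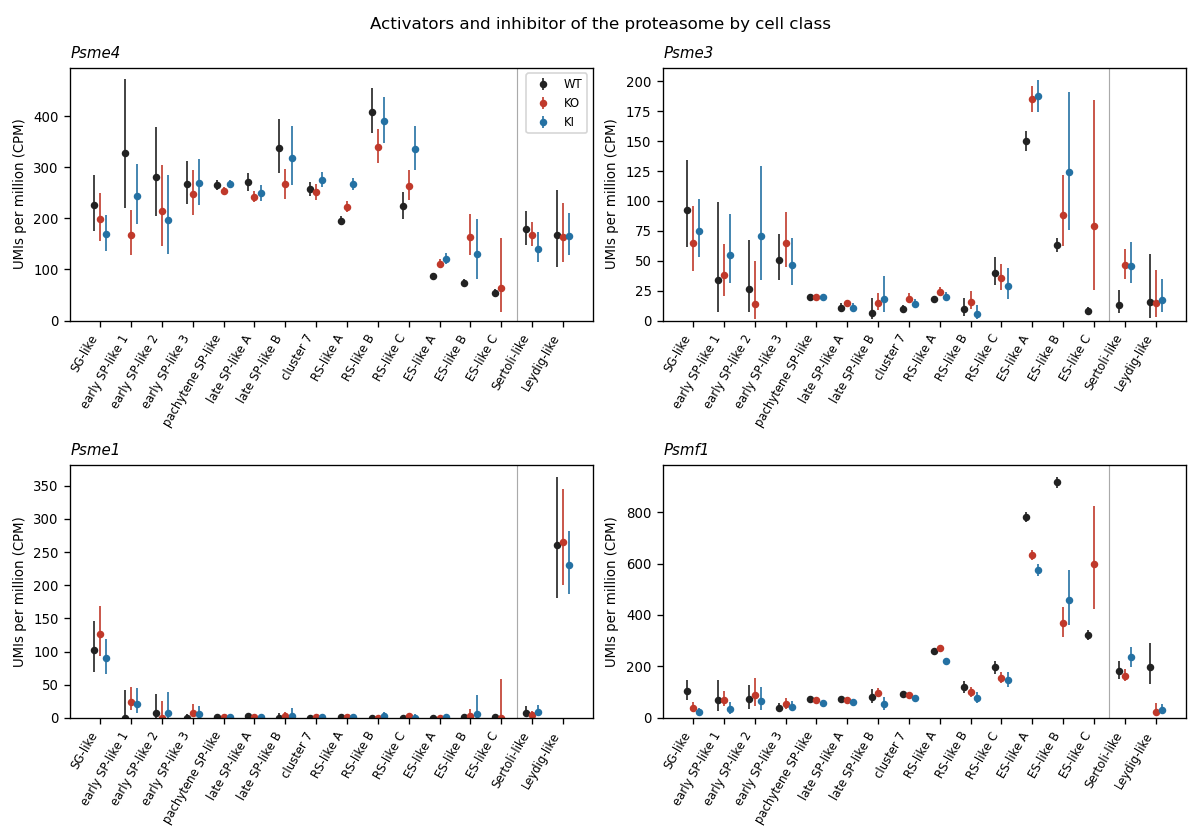
Levels in CPM of the activators Psme4, Psme3 and Psme1 and the inhibitor Psmf1 by cell class, 1 point per library with bars for 95% counting intervals; each panel has its own scale. Psme1 is near 0 in germ cells after SG-like cells and high in Leydig-like cells, Psme4 is highest in RS-like B cells, and Psme3 and Psmf1 are highest in ES-like A or B cells.

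The chaperones that build the complex did not share 1 course, and in WT Psmd10 and Psmg2 were highest in 1 of the RS-like clusters. The cap chaperone Psmd5 was at 103, 135 and 154 CPM in SG-like, 18.6, 16.8 and 16.7 CPM in SP-like and 5.05, 4.26 and 5.05 CPM in RS-like cells. Psmg1, whose product starts the alpha ring, was at 111, 109.6 and 70.6 CPM in early SP-like, 69.6, 78.4 and 79.3 CPM in SP-like and 13.4, 14.5 and 16.6 CPM in RS-like cells, while its partner Psmg2 was at 123, 87.1 and 90.6 CPM in early SP-like, 68.3, 62.8 and 63.4 CPM in SP-like and 104, 84.8 and 75.8 CPM in RS-like cells. These partners of 1 heterodimer thus had different courses after meiosis. Psmc3ip, the recombination factor, was at 243, 217 and 155 CPM in early SP-like and 458, 450.5 and 443 CPM in pachytene SP-like cells.

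Somatic classes were small and are given for comparison only. The core genes summed to 2372, 2546 and 2697 CPM in Sertoli-like, 2701, 3458 and 3026 CPM in Leydig-like and 1006, 1636 and 2043 CPM in macrophage-like cells, and the cap genes to 3024, 3369 and 3123 CPM in Sertoli-like, 1814, 2106 and 2056 CPM in Leydig-like and 1509, 1936 and 1952 CPM in macrophage-like cells. The 3 immune subunits summed to 12.0, 6.60 and 19.9 CPM in Sertoli-like, 68.9, 101 and 89.1 CPM in Leydig-like and 193, 463 and 317 CPM in macrophage-like cells. In Leydig-like cells Psma6 was at 459, 203 and 169 CPM and Psmf1 at 199, 24.2 and 31.3 CPM, both highest in WT, where the 14 spermatid markers summed to 57895, 1063 and 506 CPM. The part of free spermatid RNA in these levels was not tested.

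Other genes of the system were taken from a list of ubiquitin, shuttle and assembly factors, 31 of which are among the genes counted. From SG-like to early SP-like cells 0 of the 27 past the filter were higher (6.21% of all genes) and 2 lower (9.69%), Nfe2l2 and Uba1, and from early SP-like to SP-like cells 10 of 25 were lower (31.9%). From SP-like to RS-like cells 8 of 22 were lower (25.0%), among them the maturation factor Pomp and the receptor Adrm1. Pomp, which is needed to close the core, was at 160.1, 129.6 and 131 CPM in SP-like and 19.7, 23.9 and 12.7 CPM in RS-like cells. Adrm1 was at 80.1, 66.4 and 72.1 CPM in SP-like and 36.6, 30.5 and 28.4 CPM in RS-like cells. From RS-like to ES-like A cells 2 of 19 were higher (12.9%), Ufd1 and Ubqlnl, and 6 lower (32.1%), near the shares of all genes.

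Across genotypes, no member past the filter reached a 1.5-fold difference from WT in SP-like cells. There 39 members passed the filter, and 0 were higher or lower in KO (0.379% and 0.742% of all genes) and 0 in KI (0.610% and 1.14%). Psma8 was at 322, 312 and 388 CPM, a log2 ratio to WT of -0.05 (-0.10 to 0.01) in KO and 0.27 (0.22 to 0.32) in KI. In the pooled class the KI value was above WT and the KO value near it. Pachytene SP-like cells, with more Psma8 than late SP-like A cells, were 307 of the 593, 442 of the 1019 and 201 of the 301. Within late SP-like A cells the KO level, too, was above WT. The part of this make-up in the ratios was not tested. The core genes had a median log2 ratio of 0.09 in KO and 0.08 in KI, and the cap genes of 0.16 and 0.17, against -0.02 and 0.02 over all genes. The core median was 0.17 in KO and 0.11 in KI without integration, and 0.18 in KI as a mean of single-cell CPM. By the smaller of the 2 ratios, the members farthest above WT in both were Psmd14, the deubiquitinase of the lid, at 0.32 in KO and 0.37 in KI, Psmd12 at 0.28 and 0.30, Psmc4 at 0.25 and 0.33, Psmc2 at 0.23 and 0.23, and Psmc5 at 0.29 and 0.20. All 5 are cap genes, which made up 17 of the 39 members, and none passed the fold. Of the 17, 16 were above 0 in KO and 16 in KI, but the share of all genes above 0 was not computed. The farthest below WT were Psmg2 at -0.12 and -0.11, Psmf1 at -0.07 and -0.37, Psmg4 at -0.10 and -0.07, Psmc3ip at -0.04 and -0.03, and Psme4 at -0.10 and -0.03.

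The earliest classes hold few cells, and their comparisons rest on 22 to 99 cells per library. In SG-like cells 45 members passed the filter, of which 4 were at least 1.5-fold higher in KO (14.4% of all genes) and 1 lower (17.3%), and 7 higher (11.8%) and 2 lower (15.5%) in KI. Of the higher ones, Psmb10, counted in both, passed the filter only through KO and KI, and Psmd10, counted in KI, only through KI. Psma8 was also counted as higher in KI, where 35 of its 52 UMIs lay in 1 cell. In this class the 14 ES markers summed to 16374, 1427 and 521 CPM and the 10 Sertoli markers to 1030.2, 223 and 139 CPM. In early SP-like cells 0 of 42 were higher in KO (10.7%) and 1 lower (7.82%), Psma8, and 0 were higher in KI (10.3%) and 6 lower (13.3%), namely Psma5, Psmb3, Psmb5, Psmd7, Psmg1 and Psmc3ip. Psma8 was at 337, 195 and 234 CPM there, with -0.79 (-1.06 to -0.52) in KO and -0.52 (-0.79 to -0.27) in KI. Its level differs between the 3 early groups, and early SP-like 3, which had most of it, was 37 of the 78 WT, 39 of the 99 KO and 26 of the 56 KI cells. The class level pools UMIs, and by UMIs this group weighed more in the WT class than in the mutant ones. It supplied 589997 of the 830910 UMIs of the WT class. The KO class had 508446 from this group among 1022270, and the KI class 514501 among 948904. The part of this split in the Psma8 ratios was not tested. Within early SP-like 3 the levels were 441, 321 and 367 CPM, as given above. Over the early SP-like cells the 9 pachytene markers summed to 4266, 3144 and 2741 CPM, the 15 SG markers to 74.6, 311 and 215 CPM and the Sertoli markers to 1104, 474 and 550.1 CPM. The part of these sums in the members' ratios was not tested.

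In RS-like cells, the stage at which spermatogenesis is known to stop in GRTH mutants, 35 members passed the filter. In KO 2 were at least 1.5-fold higher (10.1% of all genes) and 2 lower (7.29%), and in KI 2 were higher (10.9%) and 4 lower (8.87%). Counted in both directions, these 4 in KO and 6 in KI were 2 in KO with 5 CPM added and 3 in KI as a mean of single-cell CPM. With the main settings the members' shares are near or under those of all genes. Without integration the share lower in KO was above that of all genes. With the finer clustering at resolution 0.6, 7 of 34 were higher (19.8% of all genes) and 1 lower (9.30%) in KO and 8 higher (22.7%) and 4 lower (11.3%) in KI, and without integration 2 of 31 were higher (11.8%) and 6 lower (7.92%) in KO. With TMM scaling 1 of 35 was higher (4.79%) and 5 lower (12.3%) in KO, and 2 higher (6.46%) and 4 lower (12.4%) in KI. The cap ATPase Psmc4 was at 21.4, 40.2 and 42.0 CPM, a log2 ratio of 0.88 (0.68 to 1.15) in KO and 0.94 (0.74 to 1.21) in KI. Psmd11 of the lid had 83.7, 128 and 125 CPM, with log2 ratios of 0.60 in KO and 0.57 in KI. Psmd1, the scaffold of the base, had 15.3, 22.8 and 26.8 CPM, with 0.54 and 0.77, and passed the filter of 20 CPM only through KO and KI. Behind them came Psmb4 at 0.55 and 0.50 and Psma2 at 0.43 and 0.44. In the opposite direction, the X-linked chaperone Psmd10 was at 61.5, 29.5 and 30.4 CPM, a log2 ratio of -1.03 (-1.26 to -0.86) in KO and -0.99 (-1.22 to -0.82) in KI, and in free RNA at 40.6, 16.5 and 13.8 CPM. Psmb2 was at 51.9, 34.0 and 28.6 CPM, with -0.59 (-0.81 to -0.41) in KO and -0.84 (-1.07 to -0.64) in KI but -0.09 and -0.12 as a mean of single-cell CPM, and Psma3 at 134, 94.8 and 86.6 CPM, with -0.49 (-0.62 to -0.38) in KO and -0.62 (-0.75 to -0.50) in KI. The remaining lower members named by the rule were Psmd6 at -0.47 and -0.44 and Psma5 at -0.58 and -0.36. Psma8 was at 37.4, 31.6 and 23.6 CPM, -0.24 (-0.46 to -0.03) in KO and -0.64 (-0.91 to -0.43) in KI, all 3 levels being under that of free RNA.

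**Figure D5:**
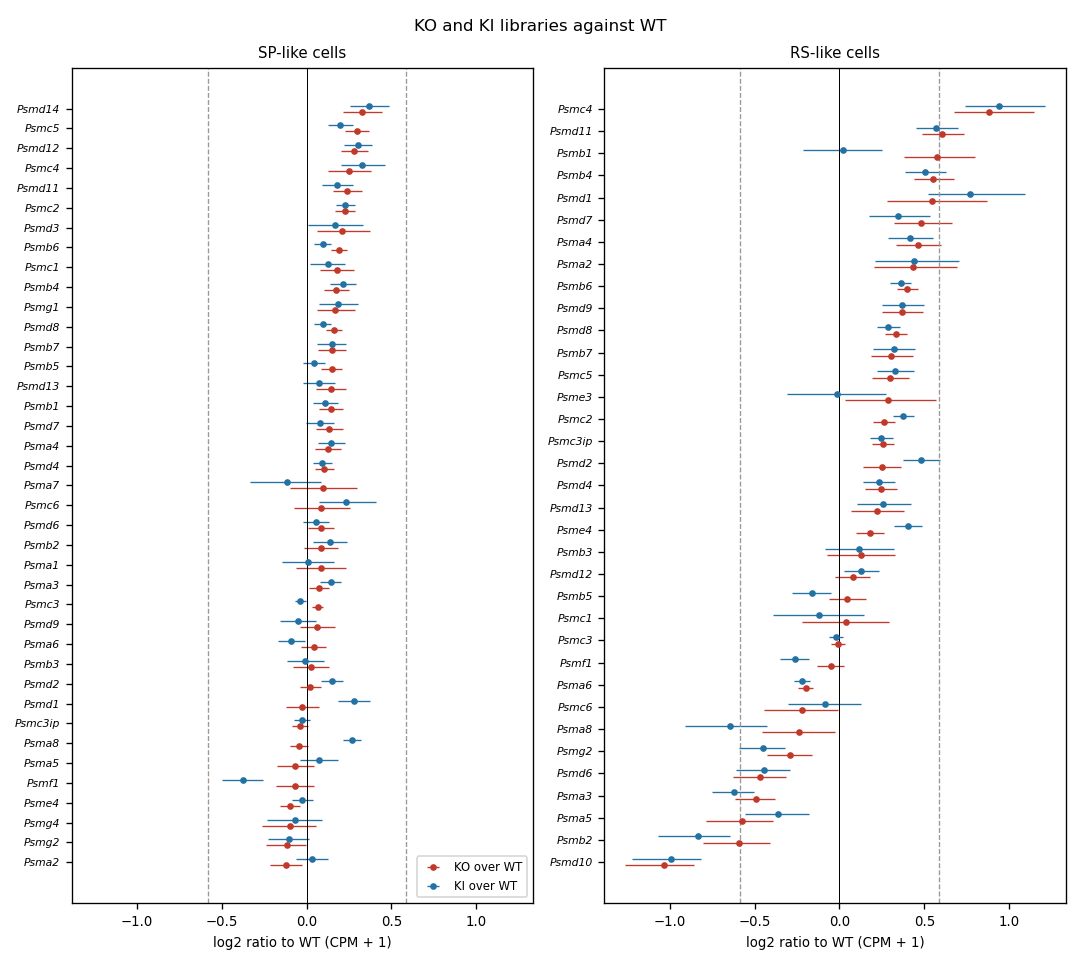
Log2 ratio of KO and of KI to WT for each proteasome gene past the filter in SP-like and in RS-like cells, with 95% counting intervals and lines at a 1.5-fold difference. In SP-like cells 0 of 39 members lie past the lines, and in RS-like cells Psmc4 lies above and Psmd10 and Psmb2 below them in both KO and KI, which share the WT library.

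The core genes had a median of 0.17 in KO and -0.04 in KI in RS-like cells (-0.00081 and -0.15 with TMM scaling, 0.44 and 0.16 as a mean of single-cell CPM), and the cap genes of 0.25 and 0.29 (0.072 and 0.16 with TMM scaling, 0.41 and 0.45 at resolution 0.6), against 0.12 and 0.11 over all genes. Psme4 was at 214, 242 and 283 CPM, with 0.18 (0.10 to 0.26) in KO and 0.40 (0.32 to 0.48) in KI, and Psma6 at 845, 737 and 725 CPM, with -0.20 (-0.24 to -0.15) in KO and -0.22 (-0.27 to -0.18) in KI. Neither passed 1.5-fold. Markers of other stages differed between the libraries in this class: the 9 pachytene markers summed to 2296, 3106 and 3069 CPM, the 10 late spermatocyte markers to 467, 766 and 748 CPM and the 14 ES markers to 12471, 5593 and 4480.5 CPM. In RS-like A alone the pachytene sum was 2397, 3181 and 3206 CPM and the ES sum 10944, 5543 and 4465 CPM. Their part in the members' ratios was not tested. The make-up of the class also differed, since RS-like A took 563, 411 and 190 cells, RS-like B 268, 394 and 101, and RS-like C 671, 671 and 243. In the deep cluster RS-like A alone 2 of 35 members were higher (10.7% of all genes) and 4 lower (8.54%) in KO, and 1 higher (13%) and 4 lower (9.74%) in KI. Of the pathway genes past the filter, 0 of 21 reached the fold in SP-like cells of KO or KI. Of all genes 0.379% were higher and 0.742% lower there in KO, and 0.610% and 1.14% in KI. In RS-like cells 1 of 19 was higher, under the 10.1% and 10.9% of all genes in KO and KI, the proteasome-binding Zfand5 at 0.61 in KO and 0.60 in KI, and 1 lower (7.29% and 8.87% of all genes), the ubiquitin gene Rps27a at -0.63 and -0.95, followed by Vcp, the segregase that feeds substrates to the proteasome, at 0.51 and 0.55.

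In ES-like A cells 12 of 23 members past the filter were higher and 1 lower in KO, and 11 higher and 1 lower in KI, where 43.8% of all genes were higher and 7.83% lower in KO and 43.9% and 7.13% in KI. Psma3 was the lower one in each. Of the higher ones, Psmd9 (18.2 CPM), Psmd13 (12.8 CPM), Psmd7 (13.9 CPM) and Psmb5 (15.7 CPM) were under the filter's level in WT. These genes passed the filter only through KO and KI, and Psmd9 was past the fold in KO only. The shares of all genes rest on the same filter. The 4 protamine and transition protein genes Prm1, Prm2, Tnp1 and Tnp2 took 19.1% of WT UMIs in this class against 7.24% in KO and 7.24% in KI. This share enters the CPM of every other gene, and its part in the counts was not tested. With TMM scaling 1 member was higher (14.8% of all genes) and 2 lower (27.4%) in KO, and 1 higher (15.5%) and 4 lower (26.4%) in KI. The 12 round spermatid markers summed to 2925, 5731 and 5494 CPM in this class, the 9 pachytene markers to 357, 839.8 and 678 CPM and the 14 ES markers to 204214, 82457 and 82200.5 CPM, and their part in these counts was not tested. The medians of the core genes, 0.69 and 0.42, and of the cap genes, 0.77 and 0.61, stood beside 0.47 and 0.48 over all genes. The core genes are at 0.14 and -0.15 with TMM scaling. Values of this class were not recomputed without integration, where few KO and KI cells were named ES, or at resolution 0.6. Psma6, at 0.16 (0.12 to 0.21) in KO and 0.05 (-0.00 to 0.10) in KI, and Psmf1, at -0.31 (-0.36 to -0.25) in KO and -0.45 (-0.52 to -0.38) in KI, were among the members that did not pass the fold.

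A member below the filter stood out in this class. Psme2, a subunit of the 11S activator induced by interferon, was chosen for this account after its values were seen, and so its difference is a description. It was counted with 1 UMI in the 507 WT cells of ES-like A, with 111 UMIs in the 295 KO cells and with 59 in the 118 KI cells, which is 0.121, 18.6 and 15.0 CPM. The UMIs were spread over 79 KO cells (26.8%, 21.8 to 32.2) and 28 KI cells (23.7%, 16.4 to 32.4), with at most 6 and 11 in 1 cell, against 1 WT cell (0.197%, 0.00499 to 1.09). The ratio to WT was 154 (27.1 to 6134) in KO and 124 (21.4 to 4979) in KI. In RS-like cells Psme2 had 4, 28 and 20 UMIs, a ratio of 8.37 (2.93 to 32.8) in KO and 6.30 (2.11 to 25.4) in KI, and in free RNA it was at 1.33, 6.60 and 5.22 CPM. Its partner Psme1 had 1, 2 and 4 UMIs in ES-like A cells. The 8 macrophage markers summed to 19.9, 30.6 and 25.8 CPM in the class, and Psme2 was at 155, 149.9 and 151 CPM in macrophage-like cells. Psme2b, its near-identical copy, was counted at 0, 0.502 and 0 CPM.

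The genes whose course was most like that of Psma8 were sought over 39 points, each a class in a library, among 7876 genes, by the Pearson correlation of log2(CPM + 1). They were Uggt2 and Gm3448 at 0.94, Fyttd1 at 0.94, Tdrd5, a germ granule factor, at 0.94 and Diablo, an inhibitor-of-apoptosis antagonist, at 0.93. Psma3 was the member most like it, at 0.88, and Psma6 the least, at -0.82. For Psme4 they were D430042O09Rik at 0.93, Dync2h1, Mia3, Naa25 and Pomt2 at 0.92, with Psmd9 the most similar member at 0.83 and Psma6 again the least, at -0.72. The points of 1 library share its depth and its free RNA, and no test was made.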

How the data were processed

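Dissociated testis cells of WT, KO and KI mice (1 library each) were profiled by 10x Genomics 3′ sequencing. The authors deposited raw UMI counts per gene and barcode, aligned to mm10; the labels name Cell Ranger 2.1.1, the file headers version 4, and the annotation is not given in the sources used here. The tables were unfiltered, so cells were called here by UMI total (3000 expected) and by comparison with barcodes of ranks 45000 to 90000 (FDR 0.01), and kept with at least 500 genes and under 10% mitochondrial UMIs. Doublets stayed in, since Scrublet marked 144, 4 and 2 cells. Libraries were integrated with sctransform 0.4.2 and Seurat 5.3.0 (2000 genes, none of them a member, 100 components) and clustered with leidenalg 0.10.2 at resolution 0.3.

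Counts were summed per class and library and divided by the class total (CPM). Exact Poisson, Clopper-Pearson and conditional binomial intervals were computed with scipy 1.17.1 at 95% and cover counting error only; a count of 0 was taken to allow 3. Log2 ratios have 1 CPM added, need a mean of at least 20 CPM, and count as past the fold at 1.5 between genotypes and at 2 in each of the 3 libraries between stages. With 1 library per genotype there is no test, and calls are read beside the share of all genes. Named by rule were Psma7, Psma8, Psme4, the catalytic and immune beta subunits, members by their highest class, the 5 highest and 5 lowest members by the smaller of the KO and KI ratios of 1 sign, the 5 genes most correlated with Psma8 and with Psme4, and the 3 pathway genes of largest change; others were chosen after their values were seen. The members and lists were chosen with earlier results of these data known. The scripts were tested on simulated data. Alternatives were TMM scaling (edgeR 4.0.16), 5 CPM added, no filter, no integration, resolution 0.6, cells called by total only, likely doublets removed, at least 2000 UMIs, the mean of single-cell CPM, a 5% mitochondrial limit and, added after the data were seen, RS-like A alone, pachytene SP-like alone and cells without shared barcodes. The pathway genes higher at the steps into SP-like and RS-like cells are not reported here.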

Additional observations from a re-analysis of the deposited data

Results flagged for a closer look

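Psma8 was also counted in cells that the comparisons do not use. In cluster 9, which stayed unnamed, it was at 242 CPM in WT, 271 CPM in KO and 384 CPM in KI, above free RNA at 72.4, 75.7 and 90.6 CPM. In cluster 14, of 278 WT cells, 3 KO cells and 0 KI cells, it was at 123 CPM in WT, again above the 72.4 CPM of free RNA. These values were singled out because they lie outside the classes described and above the level in barcodes too small to be cells.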

How the results depend on the processing

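Each setting below changed 1 choice. For the core genes in RS-like cells the median ratio (log2), 0.17 in KO and -0.04 in KI, was -0.00081 and -0.15 with TMM scaling, 0.31 and 0.18 at resolution 0.6 and 0.44 and 0.16 as a mean of single-cell CPM, so that its sign changed in KO or in KI. That of the cap genes, 0.25 and 0.29, was 0.072 and 0.16 with TMM, 0.41 and 0.45 at resolution 0.6, 0.32 and 0.18 as a mean of single-cell CPM, and 0.18 in KO without integration. The count of members past the fold there, 4 in KO and 6 in KI, was 2 in KO with 5 CPM added, 8 in KO without integration, 8 and 12 at resolution 0.6 and 3 in KI as a mean of single-cell CPM. In SP-like cells the core median, 0.09 and 0.08, was 0.13 and 0.13 with TMM, 0.17 and 0.11 without integration, 0.12 in KO at resolution 0.6 and 0.18 in KI as a mean of single-cell CPM. The share of Psma8 within the pair in SG-like cells was 9.77% in KO with likely doublets removed, and in KI 17.5% as a mean of single-cell CPM and 2.90% at a mitochondrial limit of 5%. In SP-like cells of WT it was 92.1% without integration. In RS-like cells it was 73.9%, 54.3% and 56.7% in WT, KO and KI without integration, 76.9% in WT and 70.5% in KO at resolution 0.6, 68.5% in KO and 68.8% in KI with cells called by total only, 86.4% and 87.9% as a mean of single-cell CPM, and 68.0% and 66.7% in RS-like A alone. The WT level of Psme4 was 313 CPM in SP-like and 288 CPM in RS-like cells with TMM, and in RS-like cells 169 CPM without integration, 178 CPM at resolution 0.6, 200.3 CPM with cells called by total only, 247 CPM as a mean of single-cell CPM and 196 CPM in RS-like A alone. Between stages, the 1 member higher in early SP-like than in SG-like cells became 3 with TMM, 2 without integration and 2 at resolution 0.6, and the 7 lower became 4 without integration. The 3 higher in SP-like than in early SP-like cells became 8 with TMM, 1 at resolution 0.6 and 1 at a mitochondrial limit of 5%, and the 7 lower became 1 with TMM. The 10 lower in RS-like than in SP-like cells became 16 without integration. The other 187 values of these kinds stayed within their limits, and 0 of the ratios past the fold changed direction. Ratios of single genes past the fold lost it in 17 cases, each a gene in 1 library under 1 setting. Among them was Psmb2 in RS-like cells, at -0.09 in KO and -0.12 in KI as a mean of single-cell CPM. The cause was not tested. Comparisons in ES-like A cells were not recomputed without integration or at resolution 0.6, and the steps into these cells under none of the settings. No paired analysis was possible because each genotype has 1 library, and for the same reason no replicate could be left out. Depth limits the values of the small classes, such as SG-like and early SP-like with 22 to 99 cells per library, and of genes at or under the level of free RNA.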
